A study of Mus musculus with 2 samples.

Results

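Ubiquitin-specific proteases, the largest family of enzymes that take ubiquitin off other proteins, were followed at the transcript level in mouse embryonic stem cells (mESCs) with and without Setd2. The 44 genes are the rows of the deposited table whose symbol is Usp with digits and at most the letter x or l, out of 17817 genes in all. Usp17 copies, the Y-linked Usp9y and Usp6nl, which is not a protease gene, were left out by that rule, and members with no row under such a symbol, Usp34 among them, were not analysed here. One library came from a Setd2 knockout (KO) line and the other from a wild-type (WT) line, both of mixed 129SV/C57BL/6 strain, at passages 10 to 12 and with no specific treatment. Both were grown on feeder cells and then moved through gelatin-coated dishes to reduce feeder carry-over. How the Setd2 allele was made, and whether each line is a single clone, is not given in the labels. Setd2 writes trimethylation of histone H3 lysine 36 over transcribed genes, and the comparison asks which transcripts differ in level when it is missing.

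Each genotype has 1 library, so there is no replicate, and every difference below describes these 2 libraries and not the genotypes. Levels are CPM, the deposited values turned back to read equivalents and scaled to a total of 1000000 per library. The libraries held 52041677 read equivalents over genes in KO and 56129838 in WT. Intervals are 95% exact conditional binomial intervals on a ratio. They cover counting error only, since with 1 library per genotype variation between cultures and lines is not in them. PCR copies of a molecule were not told apart by identifiers, so the intervals may be too narrow even for counting error. Setd2 itself was at 174 CPM in the KO library and 452 CPM in the WT library, 38.5% of the WT level (interval 37.6 to 39.4%). The stem cell factor gene Pou5f1 was at 544 CPM in KO and 558 CPM in WT, and Sox2 at 417 CPM in KO and 458 CPM in WT. Of the other stem cell markers Nanog was at 310 CPM in KO and 221 CPM in WT, Esrrb at 303 CPM in KO and 393 CPM in WT, and Zfp42, on chromosome 8, at 68.1 CPM in KO and 283 CPM in WT. All 5 were thus present in both libraries, with Zfp42 at 24.1% of its WT level. The 6 fibroblast markers standing for feeder cells summed to 72.0 CPM in KO and 106 CPM in WT, each of them lower in KO. Of 5 primitive endoderm markers, the 4 averaging 1 CPM or more were lower in KO, and the list summed to 15.2 CPM in KO and 36.1 CPM in WT. The Y-linked gene Ddx3y was at 176 CPM in KO and 0.445 CPM in WT, so the 2 lines also differ outside the Setd2 locus. The part of these differences in the Usp values was not tested.

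Ubiquitin is joined to proteins by a cascade of E1, E2 and E3 enzymes and removed by deubiquitinases. Ubiquitin-specific proteases are cysteine proteases of one fold, in which a cysteine near the start of the catalytic domain attacks the bond between ubiquitin and its target. Different members act on histones, on p53 and its ligase Mdm2, on DNA repair proteins, on receptors in endosomes, or on the proteasome's own substrates. In embryonic stem cells several are known for histone H2A and H2B deubiquitination, a step that works against Polycomb and alongside transcription.

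The common feature of the family is the short coding stretch around this cysteine. A matching stretch of 48 bases, with the place of the cysteine at codon number 9, was found in the gene models of 43 of the 44 genes. The exception was Usp44, whose model in the annotation used did not hold it. In 42 genes the central codon was TGT or TGC. The search allowed only a cysteine, aspartate or serine codon in this place, so the count does not measure how well the cysteine is kept. The stretches below, 5′ to 3′ on the coding strand, were taken from the NCBIM37 (mm9) assembly, with the central codon in capitals. They show the compared gene with the fold furthest from 0 (Usp10), the one without a cysteine codon (Usp39), and 3 pairs of paralogs that encode the same residues over the stretch.
Usp10: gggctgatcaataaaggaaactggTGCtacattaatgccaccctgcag
Usp39: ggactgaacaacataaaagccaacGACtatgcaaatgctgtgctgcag
Usp22: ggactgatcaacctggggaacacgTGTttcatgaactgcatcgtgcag
Usp27x: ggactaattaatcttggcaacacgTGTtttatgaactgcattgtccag
Usp25: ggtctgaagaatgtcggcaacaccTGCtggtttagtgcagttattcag
Usp28: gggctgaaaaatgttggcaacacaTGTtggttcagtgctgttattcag
Usp12: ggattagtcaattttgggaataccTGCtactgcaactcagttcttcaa
Usp46: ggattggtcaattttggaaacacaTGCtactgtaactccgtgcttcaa

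The Usp39 stretch (chr6:72287696-72287743, minus strand) lies in one exon and carries an aspartate codon, GAC, in the central place. Usp39 is known as a splicing factor of the U4/U6.U5 particle that lacks protease activity. The Usp10 stretch crosses an intron (chromosome 8, 122471028 to 122471609, plus strand). The paralogs differ by silent base changes only. Usp12 and Usp46 shared 41 of 48 bases, as did Usp25 and Usp28, and Usp22 and Usp27x shared 40. Over all 903 pairs the median identity was 62.5%. Part of this identity was set by the search, which required some residues in each stretch. The only other pair with all residues alike was Usp8 and Usp49, 2 genes of different roles.

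The family was almost level between the libraries. Of the 44 genes, 42 averaged 1 CPM or more across the pair and were compared. The 42 genes compared had means of 10.8 CPM or more, so none passed this floor through 1 library alone. Of these, 0 were at least 2-fold higher in KO and 0 at least 2-fold lower, against 1.76% and 2.11% of all 13523 genes compared. Those shares include genes below the level of any compared Usp gene. Among the 9042 genes at or above the lowest Usp mean, 68 were at least 2-fold higher and 156 at least 2-fold lower. So few genes pass 2-fold at that level that 0 of 42 does not by itself set the family apart. At 1.5-fold, 0 were higher and 1, Usp10, was lower, against 7.42% higher and 6.77% lower over all genes. Both of these shares were also smaller among the 9042 genes at the Usp level. Folds are log2((KO + 0.5)/(WT + 0.5)) on CPM. They ran from -0.76 to 0.48 over the family, with quartiles of -0.17 and 0.17, and 21 genes were above 0 and 21 below 0. Of all 13523 genes compared, 7624 were above 0 and 5899, or 43.6%, below. That share, not an even split, belongs beside each count by direction in this report. Under 3 other scalings (median log2 ratio set to 0, trimmed mean, upper quartile) Usp11, Usp12 and Usp19 went below 0, leaving 18 above and 24 below. The median was 0.00, against 0.05 over all genes, whose quartiles were -0.20 and 0.28. Within 1.5-fold lay 97.6% of the Usp genes and 85.8% of all genes. Among the 9042 genes at or above the lowest Usp mean that share was 89.9%. Summed, the 44 genes took 0.770% of all read equivalents in KO and 0.761% in WT.

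**Figure D1:**
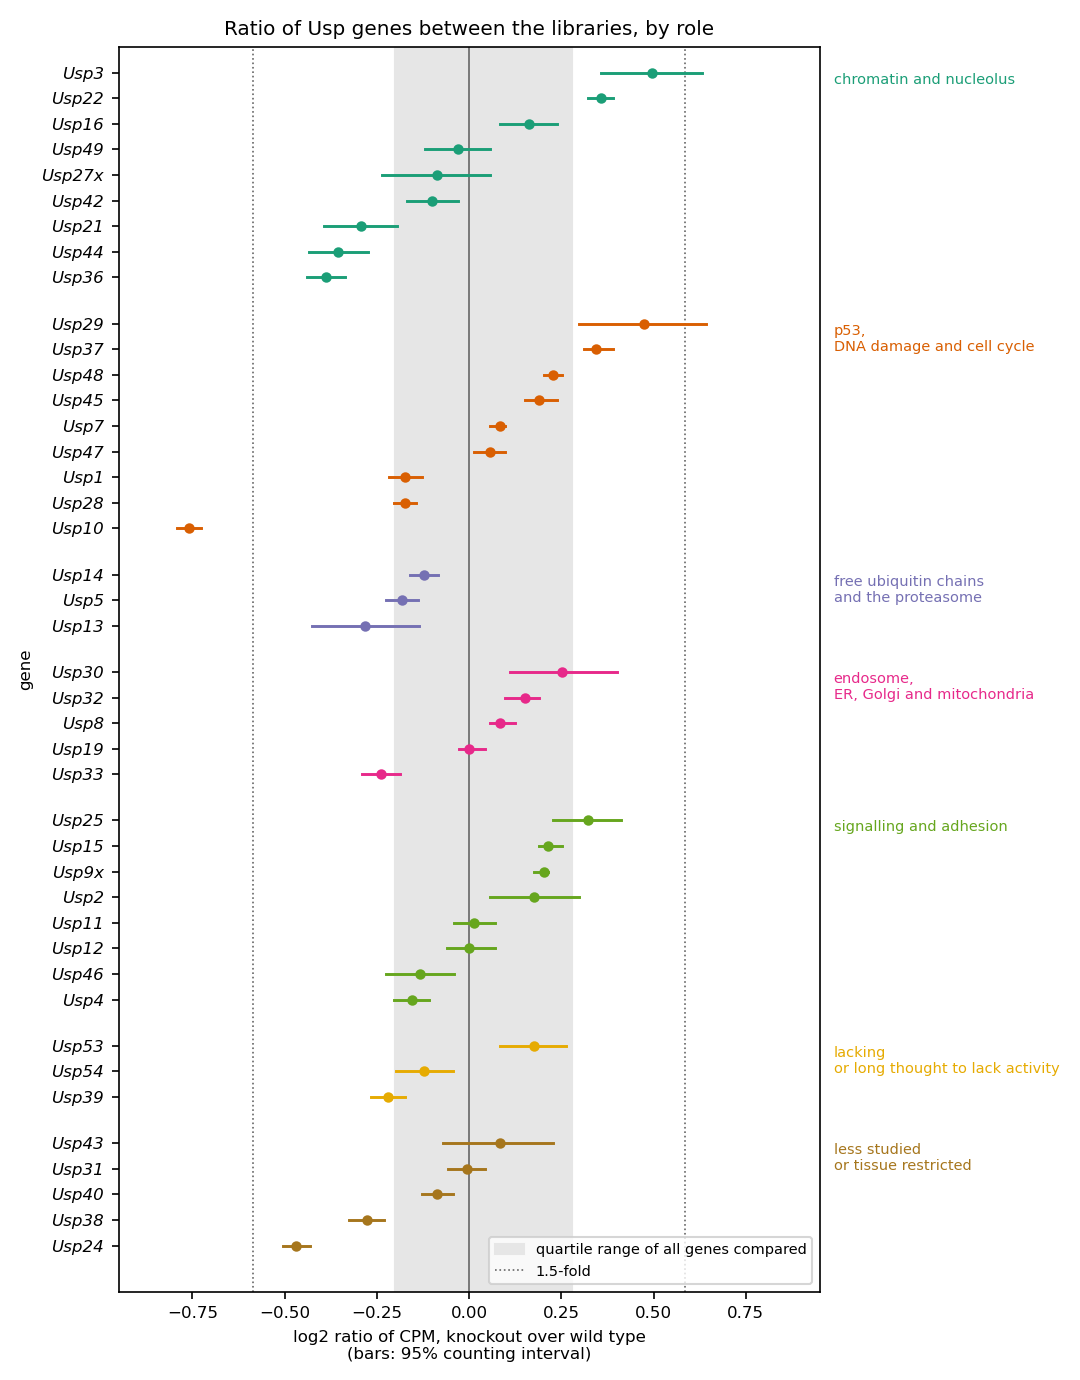
Ratio of CPM, KO over WT, on a log2 axis for the 42 compared Usp genes, grouped by role, with 95% counting intervals as bars, the quartile range of all compared genes as a grey band and 1.5-fold as dotted lines. Usp10, at 59.1% of the WT level, is the only gene outside the dotted lines.

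Levels per length differed far more between members than between libraries. Levels were divided by the merged exon length of each gene model, from NCBIM37, to give CPM per kb. Usp7 was highest, at 118 CPM per kb in KO and 111 CPM per kb in WT. It deubiquitinates Mdm2 and p53. Next came Usp15, a regulator of TGF-beta signalling, with 102 CPM per kb in KO and 87.5 CPM per kb in WT. Usp9x, an X-linked gene whose product has beta-catenin among its substrates, was at 82.1 CPM per kb in KO and 71.7 CPM per kb in WT. The 10 highest genes of the KO library were also the 10 highest of the WT library, and 21 of 44 genes held the same rank in both. The largest move in rank was 6 places, by Usp10, which had rank 10 in KO and rank 4 in WT. At the low end stood Usp18, a protease for the ubiquitin-like protein ISG15 that interferon induces. It had 0.135 CPM in KO and 0.121 CPM in WT, from 7.0 and 6.8 read equivalents, so no difference was detectable at this depth (ratio 1.11, interval 0.323 to 3.60). Usp50, which is regarded as inactive, was the other gene under the floor, with 0.441 CPM in KO and 0.844 CPM in WT (ratio 0.523, interval 0.306 to 0.887). Of 20 windows of 76 bases from its exons 15% were shared, that is, matched another place in the genome or did not align at their own.

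**Figure D2:**
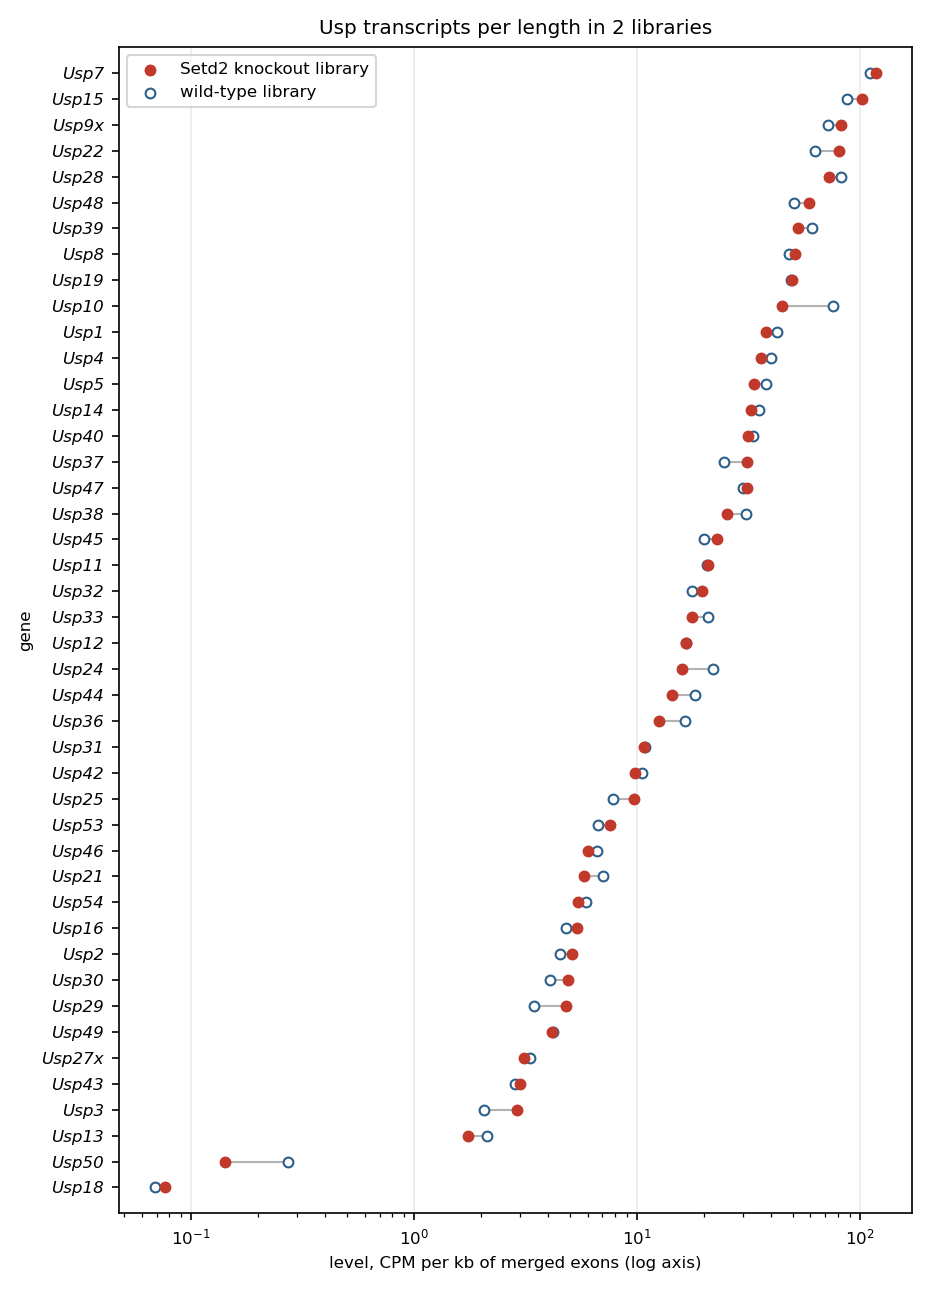
Level of all 44 Usp genes in CPM per kb of merged exons on a log axis, with filled points for the KO library and open points for the WT library, ordered by the KO level. The points of each gene lie close together while the family spans from 118 CPM per kb (Usp7) to 0.0760 CPM per kb (Usp18) in KO.

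Genes that act on histones or in the nucleolus were spread to both sides, with folds from -0.39 to 0.48, 3 of 9 above 0 and 6 below. Usp3, which removes ubiquitin from histone H2A, had the highest fold of the family, with 19.9 CPM in KO and 14.1 CPM in WT (ratio 1.41, interval 1.28 to 1.55). Usp22, the protease of the SAGA coactivator complex that acts on histone H2B, was at 393 CPM in KO and 307 CPM in WT (ratio 1.28, interval 1.25 to 1.31). Its paralog Usp27x, which can take the same place in SAGA, was at 13.3 CPM in KO and 14.1 CPM in WT, and its interval of 0.849 to 1.04 holds a ratio of 1. Per length, Usp22 was at 80.5 CPM per kb in KO and Usp27x at 3.10 CPM per kb, so the more abundant gene of this pair was the one apart. Usp16, the H2A protease that opposes Polycomb, was at 50.8 CPM in KO and 45.4 CPM in WT.

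On the lower side of this group, Usp36, a nucleolar protease of ribosome synthesis, was at 96.5 CPM in KO and 126 CPM in WT (ratio 0.764, interval 0.737 to 0.792). Usp44, an H2B protease also known from the mitotic checkpoint, was at 41.9 CPM in KO and 53.5 CPM in WT (ratio 0.782, interval 0.740 to 0.827). Usp21, whose product acts on H2A and on the Nanog protein, was at 27.4 CPM in KO and 33.6 CPM in WT (ratio 0.816, interval 0.761 to 0.874). These 3 stood between 76.4% and 81.6% of their WT level. Usp42, a p53 protease, was at 61.1 CPM in KO and 65.5 CPM in WT. Usp49, another H2B protease, was at 35.5 CPM in KO and 36.3 CPM in WT. In the annotation 66.1% of the Usp49 exon bases lie under exons of Med20 and Tomm6, so its level cannot be told apart from theirs.

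Among genes of p53 control, DNA damage and the cell cycle, 6 of 9 were above 0 and 3 below, with a median of 0.08. Usp10, a protease for p53 that is also found in stress granules, was at 243 CPM in the KO library and 411 CPM in the WT library. That is 59.1% of the WT level (interval 57.8 to 60.4%), a log2 fold of -0.76. Usp10 lies on chromosome 8 (122434752 to 122481457, plus strand, mm9), where the 719 genes compared had a median log2 fold of -0.35. Of the 20 compared genes nearest to Usp10, 19 were below 0, and their median was -0.51. Against the chromosome's median Usp10 stood at -0.41, inside 1.5-fold. What makes chromosome 8 lower in KO was not tested here.

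**Figure D3:**
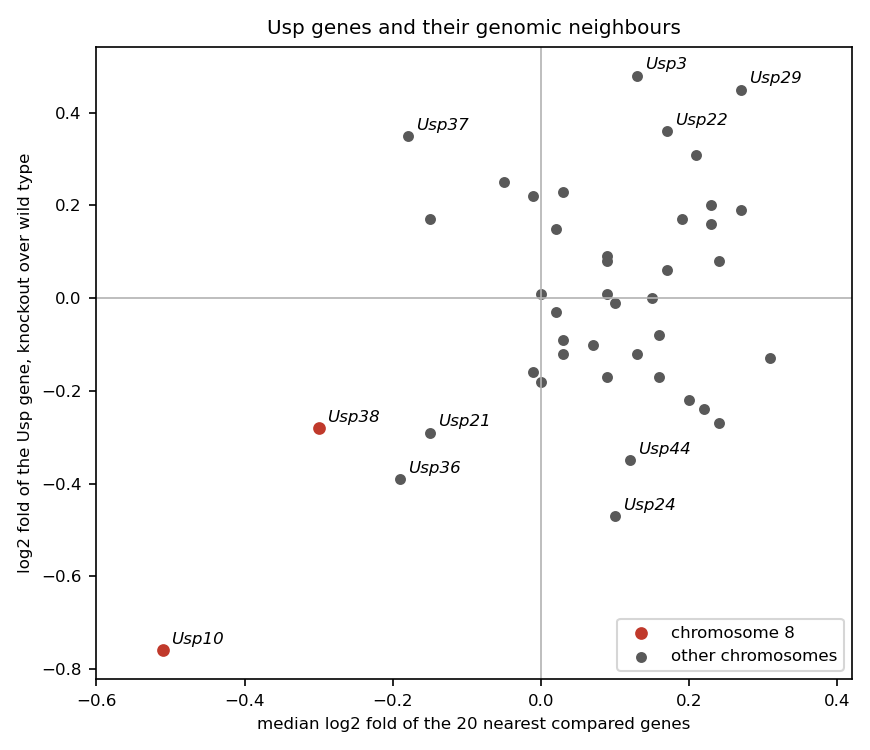
Log2 fold, KO over WT, of each compared Usp gene (vertical axis) against the median log2 fold of its 20 nearest compared genes (horizontal axis), with the chromosome 8 genes in red. Usp10 and Usp38 lie at the left, where the neighbours' medians are -0.51 and -0.30.

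The other members of the same group lay within 1.5-fold. Usp7 was at 1020 CPM in KO and 962 CPM in WT (ratio 1.06, interval 1.04 to 1.07). Usp28, which counters degradation of Myc and takes part in p53 signalling, was at 328 CPM in KO and 370 CPM in WT (ratio 0.887, interval 0.869 to 0.905). Usp48 was at 577 CPM in KO and 492 CPM in WT, a ratio of 1.17; its product trims ubiquitin from the H2A sites of BRCA1. Usp37, a protease for cyclin A, was at 225 CPM in KO and 177 CPM in WT (ratio 1.27, interval 1.24 to 1.31). Its own neighbours went the other way, with 17 of 20 below 0 and a median of -0.18.

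Usp29, which lies beside the imprinted gene Peg3 and is itself expressed from the paternal allele, had the second highest fold, with 12.5 CPM in KO and 9.01 CPM in WT (ratio 1.39, interval 1.23 to 1.56). Usp45, a protease for the repair nuclease subunit ERCC1, was at 142 CPM in KO and 124 CPM in WT. Usp47, which stabilises DNA polymerase beta, was at 176 CPM in KO and 169 CPM in WT. Usp1, the protease for FANCD2 and PCNA, was at 141 CPM in KO and 159 CPM in WT. Of its exon windows 60% were shared, so the Usp1 level is uncertain.

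The 3 genes of free ubiquitin chains and the proteasome were all below 0, by less than 1.3-fold. Within 1.3-fold lay 88.1% of all compared Usp genes, 69.0% of all genes and 74.2% of the 9042 genes at the Usp level. Usp5, which takes apart unanchored ubiquitin chains, was at 155 CPM in KO and 176 CPM in WT (ratio 0.881, interval 0.856 to 0.908). Usp14, which sits on the proteasome and trims its substrates, was at 194 CPM in KO and 211 CPM in WT. Usp13, a paralog of Usp5, was at 13.2 CPM in KO and 16.1 CPM in WT (ratio 0.823, interval 0.745 to 0.911). Per length it was at 1.74 CPM per kb in KO, the lowest of the compared members there, and at 2.12 CPM per kb in WT, where Usp3 was lower at 2.06 CPM per kb.

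Proteases of endosomes, the endoplasmic reticulum, the Golgi and mitochondria lay within 1.3-fold, as did 88.1% of all compared Usp genes. Of these proteases 4 of 5 were above 0, or 3 of 5 under the other scalings. Usp8, which deubiquitinates receptors and sorting factors on endosomes, was at 216 CPM in KO and 204 CPM in WT. Usp19, which has a form anchored in the endoplasmic reticulum, was at 257 CPM in KO and 256 CPM in WT (interval of the ratio 0.981 to 1.03). Usp30, a protein of the outer mitochondrial membrane that opposes mitophagy, was at 16.5 CPM in KO and 13.8 CPM in WT (ratio 1.19, interval 1.08 to 1.32). The remaining members were Usp32, a membrane-associated protease, at 150 CPM in KO and 135 CPM in WT, and Usp33, known from receptor recycling and centrosomes, at 105 CPM in KO and 124 CPM in WT.

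In the signalling group 6 of 8 compared genes were above 0, or 4 of 8 under the other scalings, with a median of 0.09 and a range from -0.16 to 0.31. Usp9x had the highest CPM of the family, at 1430 CPM in KO and 1240 CPM in WT (ratio 1.15, interval 1.13 to 1.16), a log2 fold of 0.20 beside a median of 0.17 over the 506 X-linked genes compared. Of its windows 45% were shared, so its level is uncertain. The Y-linked copy Usp9y was at 1.28 CPM in KO and listed at 0 in WT. The related genes Usp15, Usp11 and Usp4 did not share a direction. Usp15 was at 332 CPM in KO and 286 CPM in WT (ratio 1.16, interval 1.14 to 1.19). Usp11, on the X chromosome, was at 98.7 CPM in KO and 97.7 CPM in WT (interval 0.972 to 1.05), and Usp4 was at 132 CPM in KO and 147 CPM in WT (interval 0.869 to 0.927).

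Usp12 and Usp46 both work with the activator protein Wdr48. Usp12 was at 77.2 CPM in KO and 77.0 CPM in WT, with 25% of its windows shared. Usp46 was at 33.5 CPM in KO and 36.7 CPM in WT (ratio 0.912, interval 0.855 to 0.972). Usp25, the paralog of Usp28, was at 42.8 CPM in KO and 34.3 CPM in WT (ratio 1.25, interval 1.17 to 1.33). Its interval and that of Usp28 lie on opposite sides of 1, and Usp28 was the more abundant of the 2 at 73.0 CPM per kb in KO against 9.71 CPM per kb for Usp25. Usp2, a protease for cyclin D1 with a part in the circadian clock, was at 22.4 CPM in KO and 19.8 CPM in WT.

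Of the members that lack activity or were long thought to, Usp39 was the most abundant, at 52.5 CPM per kb in KO and 61.2 CPM per kb in WT. Its level was 127 CPM in KO and 148 CPM in WT (ratio 0.859, interval 0.831 to 0.887). Usp53, known from tight junctions, was at 43.6 CPM in KO and 38.7 CPM in WT, and Usp54 at 48.6 CPM in KO and 52.8 CPM in WT. Among the other genes Usp24, whose model has the longest coding sequence of the 44 genes at 2618 codons, had the lowest fold of the compared genes outside chromosome 8. It was at 197 CPM in KO and 272 CPM in WT (ratio 0.723, interval 0.705 to 0.741), while 7 of its 20 neighbours were below 0 and their median was 0.10. Usp38, also on chromosome 8 (83504632 to 83538805, minus strand, mm9), was at 119 CPM in KO and 144 CPM in WT, a log2 fold of -0.28 that is 0.07 above its chromosome's median. Of its exon bases 24.6% lie under another gene model. Usp40 was at 167 CPM in KO and 177 CPM in WT, Usp31 at 111 CPM in both, and Usp43 at 14.2 CPM in KO and 13.5 CPM in WT. Of the Usp43 exon bases 12.8% lie under another gene model.

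The other deubiquitinase families were close too. Of 34 genes of the UCH, OTU, Josephin, JAMM and MINDY families, 25 were above 0 and 9 below (23 and 11 under the other scalings). That is 26.5% below 0, against 43.6% of all genes compared. The median was 0.15, against 0.05 over all genes. With the pseudocount of 0.5 CPM 0 of the 34 reached a fold of 1.5 in either direction, and 85.8% of all genes did not. The OTU family had a median of 0.22 over 15 genes, 13 of them above 0, or 12 under the other scalings. Its Otud6a was highest at 2.32 CPM in KO and 1.5 CPM in WT, a ratio of 1.54 without the pseudocount (interval 1.17 to 2.08). Otud4, on chromosome 8, was lowest at 469 CPM in KO and 602 CPM in WT. Cofactors of the Usp proteins were also close, with Wdr48 at 142 CPM in KO and 125 CPM in WT and Gmps, a Usp7 partner, at 247 CPM in KO and 236 CPM in WT. Of the SAGA deubiquitinase module around Usp22, Atxn7l3 had no row under that symbol and was not analysed. The measured genes of the module had a median of -0.30 over 4 genes. Of these 3 were below 0 and 1 above, or 4 below under the other scalings. Atxn7, which anchors that module, was at 14.5 CPM in KO and 18.2 CPM in WT. Atxn7l1 was at 4.15 CPM in KO and 5.43 CPM in WT, and Atxn7l2 at 7.06 CPM in KO and 8.67 CPM in WT. Eny2 was at 18.5 CPM in KO and 18.4 CPM in WT.

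Among the E1 enzymes Uba1 was at 963 CPM in KO and 919 CPM in WT and Uba6 at 218 CPM in KO and 194 CPM in WT. The Y-linked paralog of Uba1, Ube1y1, was at 14.0 CPM in KO and listed at 0 in WT.

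**Figure D4:**
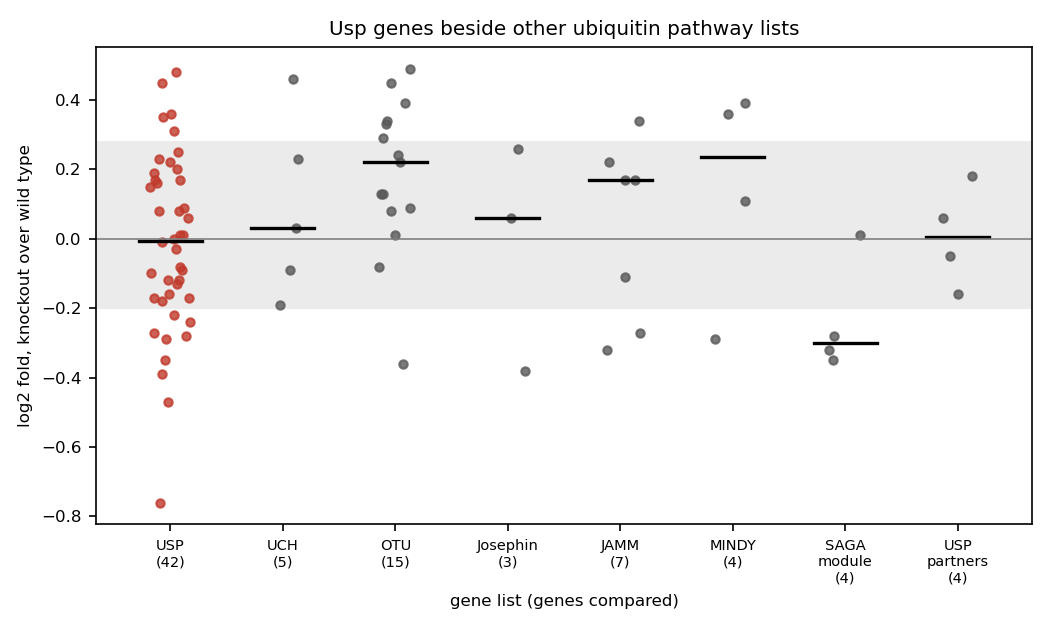
Log2 fold, KO over WT, of the compared genes of the Usp family and of 7 other ubiquitin pathway lists, with a black line at each median and the quartile range of all compared genes as a grey band. The Usp genes lie between -0.76 and 0.48 with a median of 0.00, and the OTU genes have a median of 0.22.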

How the data were processed

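RNA of 1 Setd2 knockout and 1 wild-type mESC library was sequenced. CASAVA 1.6.0, TopHat 1.0.13 and mm9 are named in the submitters' processing notes, with no role stated. Strand use and the counting of reads with several places are not stated in the labels. The deposited columns are headed RPKM, but the authors' values were read as log2(x + 1) where x, the read equivalents, is a gene's sequenced bases divided by 76. Below 200, 85.7% of values of x above 0 in knockout and 85.9% in wild type were whole multiples of 1 base, within 0.05. This reading was not foreseen by the header.

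Values were scaled to CPM. Where rows shared a symbol, the highest was kept. The pseudocount was 0.5 CPM and the floor a mean of 1 CPM. With 1 library per group no test was run. All Usp genes were named, as were compared genes of the other reported ubiquitin pathway lists beyond 1.5-fold, by a rule set with the lists. Marker genes did not follow this rule, and several beyond 1.5-fold were given only in sums or not named. Others named were chosen after their values were seen. One short list is not reported here. Members and lists were chosen with earlier results of these data known. Gene models were GENCODE on NCBIM37, the assembly of mm9. Of 17827 rows, 94.6% overlapped a model of the same symbol, as did all 44 Usp genes. Exon windows were aligned with minimap2 2.31, a match to another place having at most 2 differences. A window that did not align at its own place was also counted as shared. Python 3.11.15 and scipy 1.17.1 were used, and the procedure was tested on simulated data. Alternatives were other pseudocounts, floors, thresholds, scalings and lengths, summed rows, and leaving out chromosome 8, shared windows or overlapping models.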

Additional observations from a re-analysis of the deposited data

How the results depend on the processing

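No paired analysis was possible because KO and WT have a single library each, so none could be left out either. The number of Usp genes at least 2-fold apart was 0 under each alternative that kept the 2-fold threshold. At 1.5-fold 1 was lower, Usp10. That count was 0 without members on chromosome 8, 0 without members with shared windows (Usp10 has 1 of 20) and 0 with the chromosome median subtracted. The first 2 of these settings leave out Usp10 itself, so their counts could only be 0. The Usp10 fold ran from -0.81 to -0.41. The Usp median was -0.055 with the median log2 ratio set to 0, -0.056 with the trimmed mean and -0.055 with the chromosome median subtracted. Setd2 was at -1.429 with either of the 2 rescalings. Over all genes, 108 were higher and 194 lower with a floor of 5 CPM; 1004 genes were 1.5-fold higher and 916 lower, and 62 were 3-fold higher and 93 lower. In the other lists 2 genes were higher with no floor (Usp9y added). Of 308 recomputed Usp folds 15 changed sign, in 6 genes whose reported fold was at most 0.28 from 0. Of the 10 highest Usp genes per length, 9 stayed with the longest coding transcript as length, a setting chosen after seeing the data, as was leaving out genes under other models.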
